A study of Mus musculus with 6 samples.

Results

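The genes described here are 34 genes of glucose uptake, glycolysis, lactate and pyruvate handling and the pentose phosphate pathway, chosen by symbol from a table of 56734 gene symbols. All 34 were present and all 34 were among the 17718 genes that passed the filter on low counts. They were measured by sequencing of polyadenylated RNA in 3 Ythdf2-KO libraries, from B16-OVA cells in which Ythdf2 was knocked out, and in 3 WT libraries from B16-OVA cells. B16-OVA is a line of mouse melanoma cells engineered to produce ovalbumin, a model antigen, and YTHDF2 is a cytoplasmic reader of N6-methyladenosine that is known to promote decay of the mRNAs it binds. Both genotypes were grown in the same medium with serum and antibiotics, and no other treatment is labelled. Sample titles carry the tags gY2 for Ythdf2-KO and gNC for WT, which the labels do not explain, and the labels give neither whether the knockout cells are a single clone nor whether replicates were separate cultures. The p-values therefore measure the spread between these libraries, which may be technical.

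Glycolysis turns glucose into pyruvate in the cytosol. Glucose enters through GLUT transporters, is trapped by hexokinase and is committed by phosphofructokinase, after which the lower steps yield ATP and pyruvate. Tumor cells commonly reduce much of the pyruvate to lactate and export it through monocarboxylate transporters, while pyruvate dehydrogenase kinases hold pyruvate back from the mitochondria. The pentose phosphate pathway branches off at glucose 6-phosphate and supplies NADPH and ribose 5-phosphate. Many genes of glycolysis are known targets of the hypoxia-inducible factor HIF-1, and MYC is a further known activator.

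The libraries held 61167059 to 69497273 counts in Ythdf2-KO and 55660473 to 68739046 in WT, and a count of 3 equalled 0.0433 to 0.0486 counts-per-million (CPM) in Ythdf2-KO and 0.0438 to 0.0540 CPM in WT. Ythdf2 mRNA stood at 100.1, 101 and 104 CPM in Ythdf2-KO, against 124, 124 and 125 CPM in WT, a log2 fold change of -0.29 ± 0.026 (SE, n = 3 per group; edgeR adjusted p = 4.08e-13). The edit itself and the YTHDF2 protein are not visible in counts per gene. All 7 melanocytic markers (Mitf, Sox10, Pmel, Tyr, Tyrp1, Dct and Mlana) were detected, with a summed level of 1401 to 1431 CPM in Ythdf2-KO and 237 to 241 CPM in WT. Over the 6 libraries, 7 of 8 leukocyte markers averaged below 1 CPM, as did 3 of 4 endothelial, 4 of 4 epithelial, 3 of 4 neuronal, 4 of 4 skeletal muscle and 2 of 3 erythroid markers. The summed leukocyte level, nearly all of it Lyz2, was 12.1 to 13.2 CPM in Ythdf2-KO and 9.86 to 10.9 CPM in WT. The summed erythroid level was highest in WT replicate 3, at 10.4 CPM, and at most 1.78 CPM elsewhere. All 6 fibroblast markers were detected, with a summed level of 5774 to 5900.5 CPM in Ythdf2-KO and 4365 to 4451 CPM in WT. Most of that sum was Col3a1, and the markers went both ways, 4 higher and 2 lower: Dcn had 41.5 ± 0.735 CPM in Ythdf2-KO and 487 ± 8.10 CPM in WT, and Lum had 12.7 ± 0.609 CPM in Ythdf2-KO and 32.6 ± 0.887 CPM in WT (SD, n = 3). Mitochondrially encoded genes took 1.82, 1.81 and 1.57% of the counts in Ythdf2-KO and 1.16, 1.08 and 1.33% in WT, and Malat1, a nuclear-retained RNA, had 689, 722 and 576 CPM in Ythdf2-KO, against 431, 376 and 511 CPM in WT. The part of these differences in the results below was not tested.

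The pathway as a whole took a smaller share of the mRNA in Ythdf2-KO cells. The 34 genes together held 1.54, 1.52 and 1.56% of all counts in the Ythdf2-KO libraries, against 2.07, 2.07 and 2.06% in the WT libraries. The libraries of a genotype lay within a narrow band and the genotypes did not overlap. In bulk RNA, fewer cells expressing a gene and less RNA per cell cannot be told apart. By edgeR's quasi-likelihood test at an adjusted p under 0.05, 30 of the 34 genes were called, against 49.9% of all tested genes. Of these, 21 were lower in Ythdf2-KO, where 25.8% of all tested genes were lower, and 9 were higher, where 24.1% of all tested genes were higher. The other 4, Gapdh, Eno2, Pgls and Rpe, did not pass. A change of at least 2-fold was seen in 3 lower genes (Slc2a1, Hk2 and Pfkfb3), against 3.38% of all tested genes, and in 2 higher genes (Slc2a3 and Aldoc), against 6.16%. Higher calls made up 48.3% of all calls over the tested genes, and 59.2% with upper-quartile scaling, under which 19 of the 34 genes were lower and 11 higher. The median log2 fold change was -0.26 over the 34 genes and -0.0053 over all genes tested. In 30 of the 34 genes, those called, every Ythdf2-KO library lay on one side of every WT library, a state that held for 55.9% of all tested genes. In 21 of the 34 genes every Ythdf2-KO library lay below every WT library, against 28.9% of all tested genes.

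**Figure D1:**
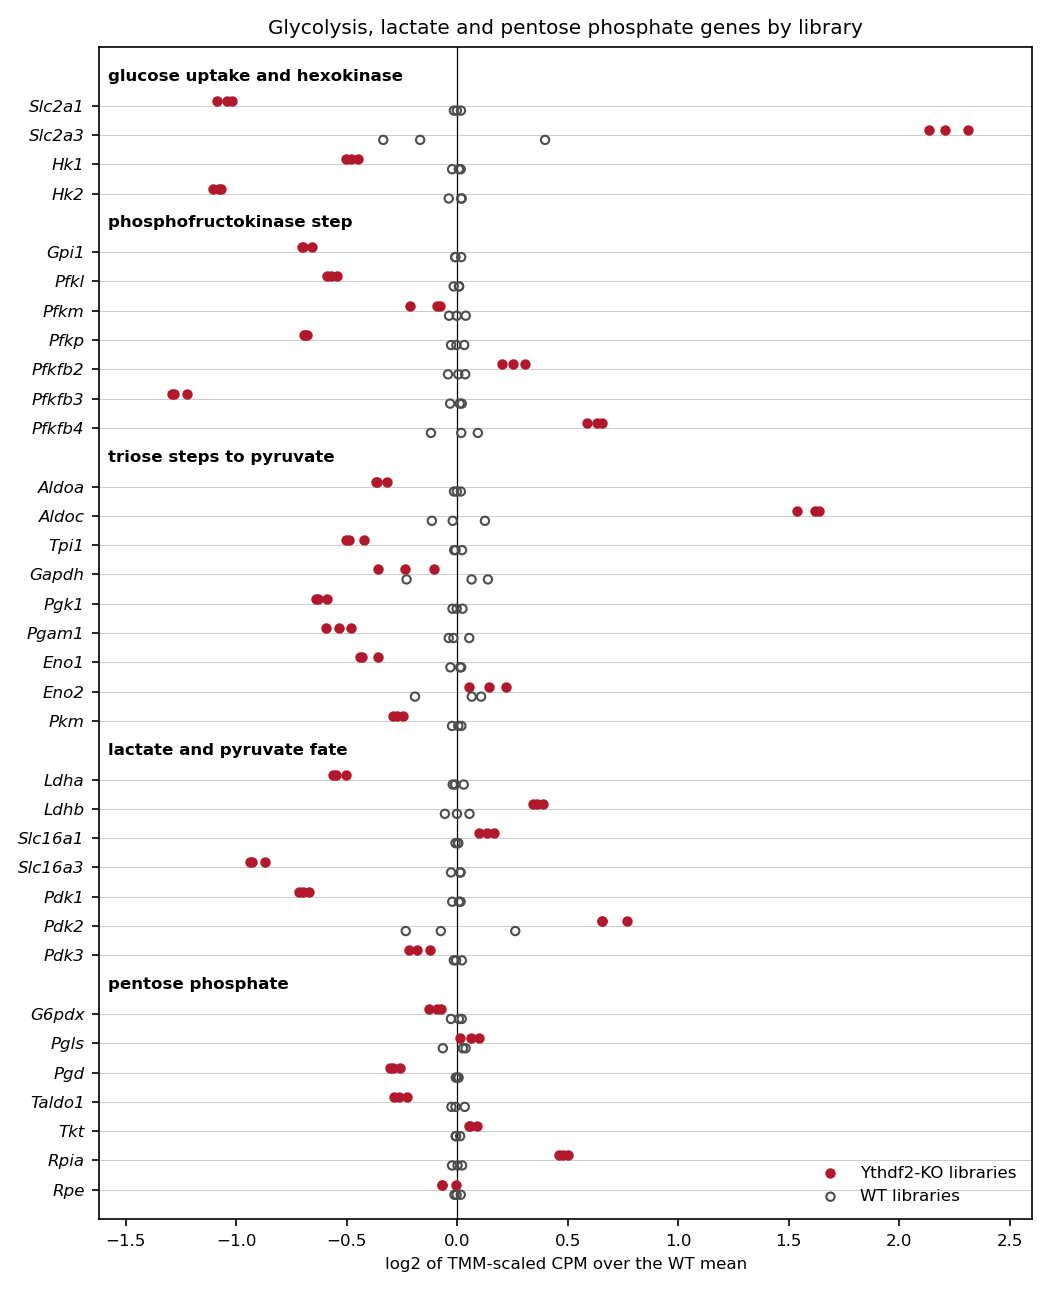
Each point is 1 library, plotted as the log2 of its TMM-scaled CPM over the mean of the WT libraries, for the 34 genes in order of the pathway (filled, Ythdf2-KO; open, WT). The Ythdf2-KO points of 21 genes lie left of WT, farthest for Pfkfb3, and those of Slc2a3 and Aldoc lie farthest right.

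Level and direction went together. Of the 21 genes with a mean of at least 100 CPM, 18 were lower, 2 were higher and Gapdh did not pass, and their median was -0.48 on the log2 scale. Among all 2446 tested genes of that level, 49.4% were lower and 26.7% higher, with a median of -0.056. Lower calls were thus frequent among all genes of that level, though less so than among these 21. Of the 13 genes under 100 CPM, 3 were lower, 7 higher and 3 did not pass, with a median of 0.25. Over all tested genes of any level 25.8% were lower and 24.1% higher. The share of lower calls here was thus near that of all genes, and the share of higher calls was above it. The shares among all tested genes under 100 CPM were not worked out. The level of 100 CPM was chosen after the values were seen.

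**Figure D2:**
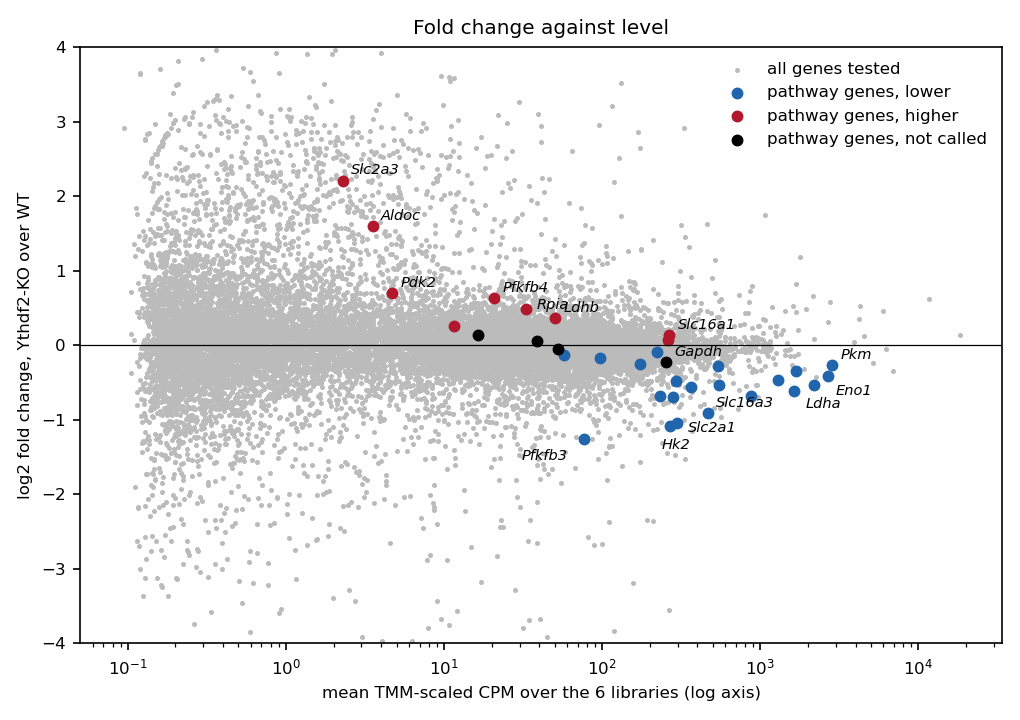
Each point is a gene, with its mean TMM-scaled CPM over the 6 libraries on a log axis and its log2 fold change of Ythdf2-KO over WT on the other; grey points are all genes tested, of which 85 lie outside the plotted range of 4 log2 units either way. Pkm, Eno1 and Ldha at the far right lie below 0, while Slc2a3, Aldoc and Pdk2, all under 10 CPM, lie above it.

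Genes of glucose uptake and the hexokinase step were lower, apart from 1 minor transporter. Of these 4 genes, 3 were lower and 1 higher. This and the counts per role below are to be read beside the shares of all tested genes, 25.8% lower and 24.1% higher. At a level of at least 100 CPM those shares were 49.4% and 26.7%, and each role holds few genes. Slc2a1, which encodes the basal glucose transporter GLUT1, had 198, 189 and 195 CPM in Ythdf2-KO, against 398, 407 and 402 CPM in WT. It was 2.07-fold lower, with a log2 fold change of -1.05 ± 0.023 (SE, n = 3 per group; edgeR adjusted p = 7.26e-36). Slc2a3, which encodes the high-affinity transporter GLUT3 known from neurons, had 3.73, 3.55 and 4.01 CPM in Ythdf2-KO, against 0.720, 0.641 and 1.07 CPM in WT. These rest on 40 to 73 counts per WT library. It was 4.62-fold higher, with a log2 fold change of 2.21 ± 0.18 (SE; edgeR adjusted p = 2.26e-14). Per kb of transcript Slc2a3 still made up only 1.57% in Ythdf2-KO and 0.165% in WT of the pair's summed level. Hk2, which encodes the hexokinase that many tumors induce, had 168, 171 and 173 CPM in Ythdf2-KO, against 367, 368 and 353 CPM in WT. It was 2.12-fold lower, the largest fall of an enzyme of the main chain, with a log2 fold change of -1.09 ± 0.023 (SE; edgeR adjusted p = 3.38e-36). Hk1, the housekeeping hexokinase gene, had 243, 239 and 249 CPM in Ythdf2-KO, against 341, 343 and 334 CPM in WT, and was 1.39-fold lower. Per kb, Hk1 made up 64.8% in Ythdf2-KO and 54.7% in WT of the summed level of both hexokinase genes.

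At the phosphofructokinase step the enzyme genes were lower and the genes of its allosteric activator were split. Of 7 genes, 5 were lower and 2 higher, where 25.8% of all tested genes were lower and 24.1% higher. Gpi1, which encodes glucose-6-phosphate isomerase, had 661, 657 and 679 CPM in Ythdf2-KO, against 1063, 1083 and 1063 CPM in WT, 1.61-fold lower. The phosphofructokinase genes Pfkp, Pfkl and Pfkm, known as platelet, liver and muscle types, were 1.61-, 1.48- and 1.09-fold lower. Pfkl had 289, 293 and 298 CPM in Ythdf2-KO, against 429, 437 and 437 CPM in WT, and Pfkp had 176, 177 and 178 CPM in Ythdf2-KO, against 292, 279.8 and 284 CPM in WT. Pfkm, the least abundant of them per kb, had 51.3, 56.5 and 55.8 CPM in Ythdf2-KO, against 58.0, 59.4 and 61.1 CPM in WT, with a log2 fold change of -0.13 ± 0.036 (SE; edgeR adjusted p = 0.00283). Upper-quartile scaling ended that call (edgeR adjusted p = 0.0908), as did leaving out Ythdf2-KO replicate 1 (edgeR adjusted p = 0.0712).

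The PFKFB enzymes make and break fructose 2,6-bisphosphate, the strongest known activator of phosphofructokinase. Pfkfb3, whose product mostly makes it, had 46.6, 44.6 and 44.8 CPM in Ythdf2-KO, against 110.4, 109.7 and 106 CPM in WT. It was 2.40-fold lower, the largest fall of all 34 genes, with a log2 fold change of -1.26 ± 0.031 (SE, n = 3 per group; edgeR adjusted p = 1.96e-33). Pfkfb4, an isoenzyme gene, had 24.5, 25.3 and 25.7 CPM in Ythdf2-KO, against 17.4, 15.0 and 16.5 CPM in WT, and was 1.54-fold higher (log2 fold change 0.63 ± 0.057, SE; edgeR adjusted p = 5.11e-13). Pfkfb2, best known from heart, had 13.0, 12.5 and 12.1 CPM in Ythdf2-KO, against 10.8, 10.2 and 10.6 CPM in WT, and was 1.19-fold higher. Per kb, the share of Pfkfb3 in the summed level of these isoenzyme genes was 48.5% in Ythdf2-KO and 76.3% in WT.

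The 250 bases before the RefSeq start site (GRCm38.p6) of Pfkfb3 and Pfkfb4 are shown because these paralogs went opposite ways. Capitals mark matches, on either strand, to ACGTG and GCGTG, the cores of the hypoxia response element, and to CACGTG, the E-box that MYC and other factors bind; every CACGTG also holds ACGTG.
Pfkfb3 (chr2:11553930-11554179, minus strand): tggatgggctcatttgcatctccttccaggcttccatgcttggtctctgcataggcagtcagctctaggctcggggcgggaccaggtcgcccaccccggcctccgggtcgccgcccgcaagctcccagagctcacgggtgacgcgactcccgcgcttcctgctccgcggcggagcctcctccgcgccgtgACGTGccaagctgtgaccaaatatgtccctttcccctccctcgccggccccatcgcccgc
Pfkfb4 (chr9:108991652-108991901, plus strand): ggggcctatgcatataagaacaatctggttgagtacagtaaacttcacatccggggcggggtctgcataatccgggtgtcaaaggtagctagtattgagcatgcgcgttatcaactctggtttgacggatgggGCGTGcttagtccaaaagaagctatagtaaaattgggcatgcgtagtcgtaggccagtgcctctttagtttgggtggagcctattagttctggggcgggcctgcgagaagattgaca
The printed Pfkfb3 sequence held 1 ACGTG and that of Pfkfb4 1 GCGTG. Pfkfb3 had 2 windows in the RefSeq table, for separate start sites, and Pfkfb4 had 1. These windows also hold the 50 bases after the start site, which are not printed. Over these windows GCGTG stood in both genes, in 1 of 2 for Pfkfb3 and 1 of 1 for Pfkfb4. ACGTG stood in 2 of 2 for Pfkfb3 and 0 of 1 for Pfkfb4, and CACGTG in 1 of 2 and 0 of 1.

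From aldolase to pyruvate kinase the abundant enzyme genes were lower by modest folds. Of 9 genes, 6 were lower, 1 was higher and 2 did not pass. Of all tested genes 25.8% were lower and 24.1% higher, and of those of at least 100 CPM 49.4% were lower. Pgk1, which encodes phosphoglycerate kinase, an ATP-yielding step, had 1275, 1268 and 1313 CPM in Ythdf2-KO, against 1971, 2007 and 1945 CPM in WT, 1.54-fold lower with a log2 fold change of -0.62 ± 0.020 (SE, n = 3 per group; edgeR adjusted p = 1.03e-28). Pgam1, a phosphoglycerate mutase gene, had 431, 449 and 466 CPM in Ythdf2-KO, against 642, 675 and 633 CPM in WT, 1.45-fold lower. Tpi1, which encodes triose-phosphate isomerase, had 1067, 1055 and 1118 CPM in Ythdf2-KO, against 1488, 1518 and 1481 CPM in WT, 1.39-fold lower. In none of these genes did the genotypes overlap.

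The most abundant of the 34 genes per kb were Eno1, Pkm, Ldha and Aldoa in both genotypes. Eno1, which encodes the ubiquitous enolase, averaged 1126 CPM per kb in Ythdf2-KO and 1497 in WT, and its level was 2249, 2237 and 2363 CPM in Ythdf2-KO, against 3072, 3062 and 2969 CPM in WT, 1.33-fold lower. Pkm, which encodes the pyruvate kinases PKM1 and PKM2, averaged 1059.8 CPM per kb in Ythdf2-KO and 1278 in WT. Its level was 2570.2, 2542 and 2620.2 CPM in Ythdf2-KO, against 3057, 3148 and 3118 CPM in WT, 1.21-fold lower, the smallest fall of the called genes between aldolase and pyruvate kinase. Gene-level counts do not separate PKM1 from PKM2. Aldoa, the main aldolase gene, had 1454, 1458 and 1505 CPM in Ythdf2-KO, against 1873, 1896 and 1856 CPM in WT, and was 1.27-fold lower.

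The minor isoenzyme genes of these steps did not share the fall. Aldoc, the aldolase gene known from brain, had 5.09, 5.38 and 5.46 CPM in Ythdf2-KO, against 1.73, 1.62 and 1.91 CPM in WT. It was 3.02-fold higher, with a log2 fold change of 1.60 ± 0.13 (SE; edgeR adjusted p = 2.46e-14), yet made up only 0.200% in Ythdf2-KO and 0.0520% in WT of the aldolase level per kb. Eno2, the neuronal enolase gene, had 18.1, 17.1 and 16.1 CPM in Ythdf2-KO, against 16.7, 13.6 and 16.3 CPM in WT. The genotypes overlapped and Eno2 did not pass (log2 fold change 0.14 ± 0.069, SE; edgeR adjusted p = 0.0856), but it passed as higher in 7 of the alternatives given in the closing section. Of the neuronal markers, Rbfox3, Snap25 and Syt1 lay below 0.1 CPM in both genotypes and Tubb3 had 20.7 ± 1.73 CPM in Ythdf2-KO and 14.0 ± 0.334 CPM in WT (SD, n = 3).

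The upstream windows of the aldolase paralogs are shown for the same reason, with the same capitals.
Aldoa (chr7:126799179-126799428, minus strand): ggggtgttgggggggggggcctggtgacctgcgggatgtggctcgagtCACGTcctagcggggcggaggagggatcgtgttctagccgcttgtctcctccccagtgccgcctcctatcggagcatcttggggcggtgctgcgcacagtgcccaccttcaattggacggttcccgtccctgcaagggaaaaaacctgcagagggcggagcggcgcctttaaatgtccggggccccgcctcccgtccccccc
Aldoc (chr11:78322823-78323072, plus strand): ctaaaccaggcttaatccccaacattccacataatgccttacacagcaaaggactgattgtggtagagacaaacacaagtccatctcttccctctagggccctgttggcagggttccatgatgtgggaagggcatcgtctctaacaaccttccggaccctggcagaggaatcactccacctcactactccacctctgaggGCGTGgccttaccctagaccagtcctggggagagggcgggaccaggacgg
The printed Aldoa sequence held 1 ACGTG, read from the opposite strand, and that of Aldoc 1 GCGTG. Over all windows of the table, ACGTG stood in 2 of 3 for Aldoa and in 1 of 2 for Aldoc, and GCGTG in 0 of 3 for Aldoa and 2 of 2 for Aldoc.

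Gapdh, which encodes glyceraldehyde-3-phosphate dehydrogenase and is a common reference gene, had 253, 231 and 212 CPM in Ythdf2-KO, against 232, 284 and 299 CPM in WT. The genotypes overlapped, and Gapdh did not pass (log2 fold change -0.23 ± 0.13, SE; edgeR adjusted p = 0.233). Its libraries were more scattered than those of its neighbours in the pathway: the coefficient of variation was 8.92% in Ythdf2-KO and 13.0% in WT, against 1.90% in Ythdf2-KO and 1.58% in WT for Pgk1. Per kb it averaged 163 CPM per kb in Ythdf2-KO and 192 in WT, below Tpi1 with 672 CPM per kb in Ythdf2-KO and 931 in WT. Gapdh, Pgk1, Pgam1, Eno1 and Ldha have near-identical copies elsewhere in the genome, so that reads can be split between them and these counts are uncertain. Of such copies, Eno1b had 5.28, 5.59 and 6.08 CPM in Ythdf2-KO, against 8.55, 8.57 and 7.69 CPM in WT, and was lower (edgeR adjusted p = 2.07e-06). Ldha-ps2 had 8.18, 7.81 and 8.98 CPM in Ythdf2-KO, against 11.6, 11.3 and 11.2 CPM in WT, and was lower (edgeR adjusted p = 3.41e-06). These copies were named after their values were seen.

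The main genes of lactate formation and export were lower, while their paralogs Ldhb and Slc16a1 were higher. Of the 7 genes of lactate and pyruvate handling, 4 were lower and 3 higher, against 25.8% and 24.1% of all tested genes. Ldha, which encodes the lactate dehydrogenase subunit that favours lactate formation, had 1759, 1744 and 1818 CPM in Ythdf2-KO, against 2539, 2628 and 2558 CPM in WT. It was 1.45-fold lower, with a log2 fold change of -0.54 ± 0.021 (SE, n = 3 per group; edgeR adjusted p = 3.77e-26). Ldhb, which encodes the subunit known from oxidative tissues, had 55.7, 56.4 and 57.4 CPM in Ythdf2-KO, against 42.3, 45.7 and 43.9 CPM in WT, and was 1.28-fold higher (log2 fold change 0.36 ± 0.037, SE; edgeR adjusted p = 1.31e-11). Ldhb made up 4.25% in Ythdf2-KO and 2.32% in WT of the summed level of both genes per kb.

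Slc16a3, which encodes MCT4, the exporter of lactate from glycolytic cells, had 319.9, 317 and 333 CPM in Ythdf2-KO, against 615, 614 and 597 CPM in WT. It was 1.88-fold lower, with a log2 fold change of -0.91 ± 0.022 (SE; edgeR adjusted p = 7.54e-34). Slc16a1, which encodes MCT1, a transporter that carries lactate and pyruvate both ways, had 271, 278 and 285 CPM in Ythdf2-KO, against 252, 254 and 254 CPM in WT, and was 1.10-fold higher. The ranges of Slc16a1 were close but did not overlap. Per kb, MCT4 mRNA remained the more abundant in both genotypes, with 54.3% in Ythdf2-KO and 71.0% in WT of the summed level.

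The windows upstream of the lactate dehydrogenase and lactate transporter paralogs follow, since within each pair one gene was lower and the other higher.
Ldha (chr7:46846832-46847081, plus strand): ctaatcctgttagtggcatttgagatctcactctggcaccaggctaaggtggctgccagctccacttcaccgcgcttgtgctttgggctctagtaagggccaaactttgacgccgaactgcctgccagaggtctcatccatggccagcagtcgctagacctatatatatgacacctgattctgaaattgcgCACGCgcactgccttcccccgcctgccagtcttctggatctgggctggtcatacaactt
Ldhb (chr6:142507958-142508207, minus strand): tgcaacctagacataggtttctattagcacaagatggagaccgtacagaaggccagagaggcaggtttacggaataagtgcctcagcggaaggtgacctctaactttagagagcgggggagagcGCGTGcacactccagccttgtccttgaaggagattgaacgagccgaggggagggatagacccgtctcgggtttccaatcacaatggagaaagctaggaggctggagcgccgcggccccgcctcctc
Slc16a3 (chr11:120948817-120949066, plus strand): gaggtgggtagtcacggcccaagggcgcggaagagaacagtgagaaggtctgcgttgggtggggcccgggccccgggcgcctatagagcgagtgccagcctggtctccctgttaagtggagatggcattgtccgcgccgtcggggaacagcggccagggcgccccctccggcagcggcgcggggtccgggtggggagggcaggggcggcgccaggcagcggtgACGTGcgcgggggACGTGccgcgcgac
Slc16a1 (chr3:104638414-104638663, plus strand): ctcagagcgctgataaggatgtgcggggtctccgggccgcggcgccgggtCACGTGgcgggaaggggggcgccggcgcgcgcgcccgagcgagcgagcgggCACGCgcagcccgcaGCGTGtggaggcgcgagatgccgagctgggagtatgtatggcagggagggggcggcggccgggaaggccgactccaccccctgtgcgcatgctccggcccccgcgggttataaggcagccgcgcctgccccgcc
The printed Slc16a3 sequence held 2 ACGTG matches close to the start site, and that of Slc16a1 1 CACGTG and 2 GCGTG matches. The printed sequences of Ldha and Ldhb held 1 GCGTG each. Of the 2 Ldha windows in the RefSeq table, which run to 50 bases past the start site, 1 held CACGTG, outside the printed bases.

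Pyruvate dehydrogenase kinases inactivate pyruvate dehydrogenase and so limit entry of pyruvate into the citric acid cycle. Pdk1, a known HIF-1 target, had 213, 216 and 209.9 CPM in Ythdf2-KO, against 347, 349 and 339 CPM in WT, 1.62-fold lower with a log2 fold change of -0.69 ± 0.022 (SE; edgeR adjusted p = 3.40e-29). Pdk3 had 90.5, 88.3 and 94.2 CPM in Ythdf2-KO, against 102, 104 and 102 CPM in WT, and was 1.13-fold lower. Pdk2, the least abundant of them, had 5.66, 5.67 and 6.14 CPM in Ythdf2-KO, against 4.32, 3.42 and 3.06 CPM in WT, and was 1.62-fold higher (edgeR adjusted p = 1.86e-06). Per kb, Pdk3 mRNA stood beside Pdk1 in Ythdf2-KO, at 43.0 ± 1.42 and 41.1 ± 0.633 CPM per kb, and below it in WT, at 48.6 ± 0.633 and 66.5 ± 0.922 (SD, n = 3).

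The pentose phosphate genes differed little and went both ways. Of 7 genes, 3 were lower, 2 higher and 2 did not pass, with log2 fold changes from -0.28 to 0.48. Of all tested genes 25.8% were lower and 24.1% higher. In the oxidative branch, G6pdx, which encodes the rate-limiting glucose-6-phosphate dehydrogenase, had 209, 214 and 217 CPM in Ythdf2-KO, against 229, 231 and 224 CPM in WT. The fall was small, with a log2 fold change of -0.10 ± 0.023 (SE, n = 3 per group; edgeR adjusted p = 4.20e-04), and upper-quartile scaling ended the call (edgeR adjusted p = 0.0860). Pgd, which encodes the second NADPH-yielding dehydrogenase of the branch, had 483, 487 and 499 CPM in Ythdf2-KO, against 593, 599 and 596 CPM in WT, 1.22-fold lower. Pgls, which encodes the lactonase between them, had 39.6, 38.3 and 40.6 CPM in Ythdf2-KO, against 38.6, 39.0 and 36.3 CPM in WT and did not pass (edgeR adjusted p = 0.245), although it passed as higher with upper-quartile scaling (edgeR adjusted p = 0.0172).

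In the non-oxidative branch, which exchanges sugar phosphates with glycolysis, Taldo1 (transaldolase) had 158, 155 and 162 CPM in Ythdf2-KO, against 188, 194 and 186 CPM in WT, lower by a log2 fold change of -0.26 ± 0.024 (SE). Tkt (transketolase) had 264, 263 and 270.3 CPM in Ythdf2-KO, against 252, 256 and 253 CPM in WT, and was 1.05-fold higher (edgeR adjusted p = 0.00886). Tkt no longer passed when Ythdf2-KO replicate 3 was left out (edgeR adjusted p = 0.0542), or replicate 3 of each genotype (edgeR adjusted p = 0.101). Rpia, which encodes ribose-5-phosphate isomerase, had 39.2, 38.6 and 38.1 CPM in Ythdf2-KO, against 28.1, 27.7 and 27.2 CPM in WT. It was 1.40-fold higher, with a log2 fold change of 0.48 ± 0.043 (SE; edgeR adjusted p = 2.35e-13). Rpe, the epimerase gene, had 50.6, 52.8 and 50.6 CPM in Ythdf2-KO, against 52.9, 52.6 and 53.6 CPM in WT; the genotypes overlapped and it did not pass (edgeR adjusted p = 0.269).

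By role, the share of all counts was 0.0623, 0.0609 and 0.0619% in the Ythdf2-KO libraries and 0.110, 0.110 and 0.109% in the WT libraries for glucose uptake and hexokinase. For aldolase to pyruvate kinase it was 0.946, 0.935 and 0.959% in Ythdf2-KO and 1.23, 1.24 and 1.23% in WT. For the pentose phosphate genes it was 0.126, 0.126 and 0.127% in Ythdf2-KO and 0.138, 0.137 and 0.137% in WT. These sums are led by the most abundant genes of each role.

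**Figure D3:**
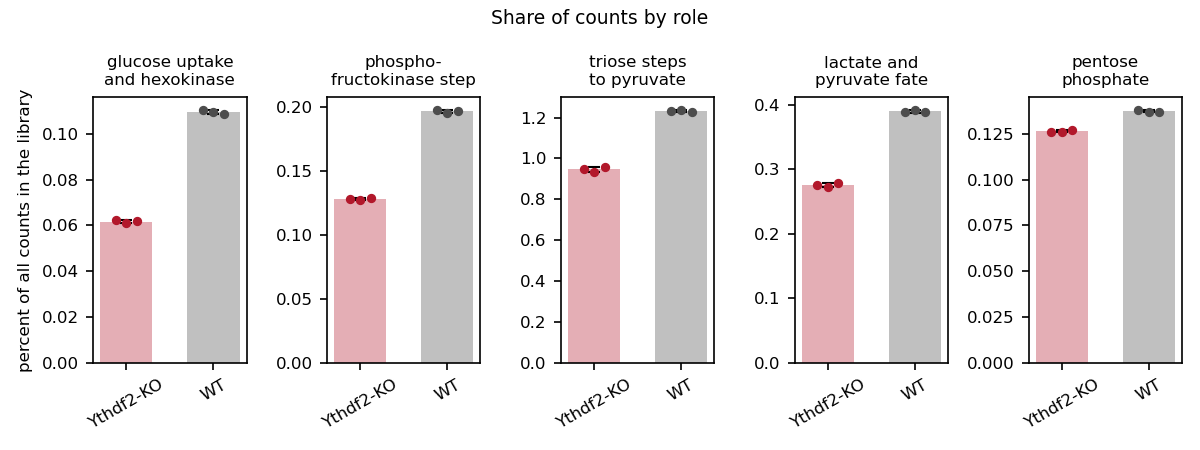
Percent of all counts of a library taken by the genes of each role, with the Ythdf2-KO libraries left of WT in each panel; bars are means, points are libraries, error bars are the SD (n = 3), and each panel has its own axis from 0. The bars of Ythdf2-KO are lower in all 5 panels, with the smallest relative gap for the pentose phosphate genes.

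Ratios between paralogs within a library do not depend on how libraries are scaled. In all 12 pairs compared, the log2 count ratio was higher in every Ythdf2-KO library than in every WT library. Which paralog stands on top was set with earlier results known, so that the common direction is a description. The ratio of Slc2a3 to Slc2a1 was -5.73, -5.73 and -5.60 on the log2 scale in the Ythdf2-KO libraries and -9.09, -9.29 and -8.55 in the WT libraries, a 9.78-fold shift. That of Pfkfb4 to Pfkfb3 was -0.85 ± 0.068 in Ythdf2-KO and -2.74 ± 0.11 in WT (SD, n = 3), a 3.71-fold shift. The ratio of Ldhb to Ldha was -4.98, -4.95 and -4.98 in the Ythdf2-KO libraries and -5.91, -5.85 and -5.86 in the WT libraries, a 1.87-fold shift. For Slc16a1 to Slc16a3 it was -0.22 ± 0.025 in Ythdf2-KO and -1.26 ± 0.029 in WT, a 2.06-fold shift, and for Hk1 to Hk2 0.51 ± 0.028 in Ythdf2-KO and -0.10 ± 0.013 in WT, a 1.52-fold shift. The smallest shift was 1.09-fold, for Pfkl to Pfkp. Each pair had a two-sided exact permutation p of 0.1, the smallest that 3 against 3 libraries can give, and 0.1 after Benjamini-Hochberg adjustment over the 12 pairs, so that none could pass 0.05.

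**Figure D4:**
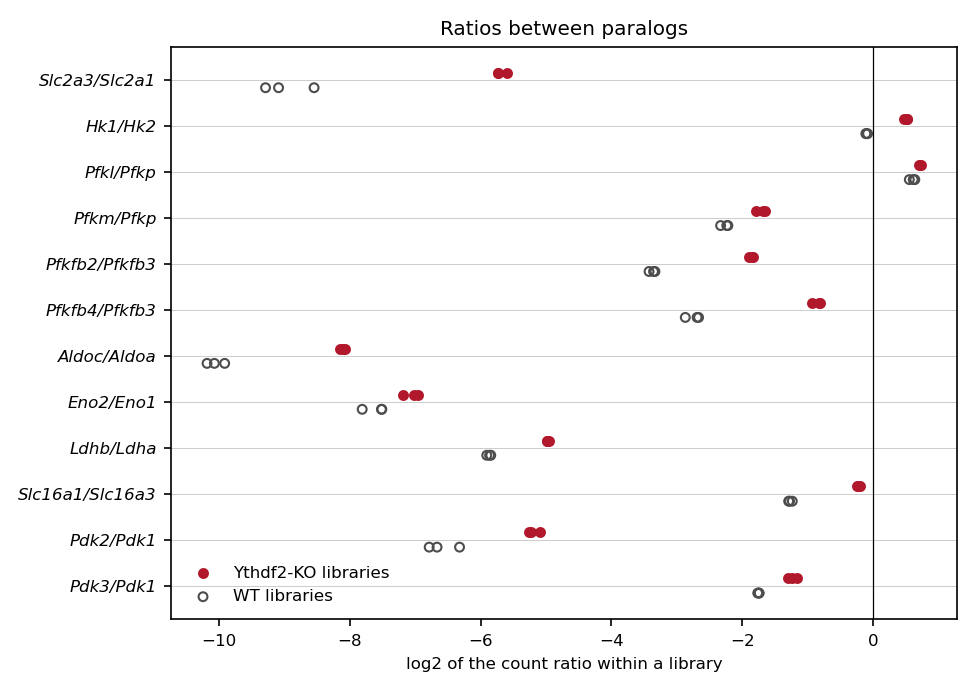
The log2 of the count ratio of 2 paralogs within each library, with 1 point per library (filled, Ythdf2-KO; open, WT). In all 12 pairs the Ythdf2-KO points lie right of the WT points, by 3.29 log2 units for Slc2a3 over Slc2a1 and by 0.12 for Pfkl over Pfkp.

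The promoter windows of the RefSeq table, 250 bases before to 50 after a start site (GRCm38.p6), matched 33 of the 34 genes. ACGTG stood in the windows of 18 of these 33 genes (54.5%), against 21.8% of the 27025 genes in the table, and GCGTG in 23 of 33 (69.7%), against 35.2%. CACGTG stood in 6 of 33 (18.2%), against 8.09% of all genes. A gene counted if any of its windows matched, and the 33 genes had 50 windows, against 32851 windows for the 27025 genes. Per window the shares were 44% against 19.6% for ACGTG, 58% against 32.4% for GCGTG and 12% against 7.15% for CACGTG. Of the genes lower in Ythdf2-KO, 13 of 21 (61.9%) held ACGTG, as did 4 of the 8 higher genes with a window. GCGTG stood in 14 of 21 lower genes (66.7%) and 7 of 8 higher genes (87.5%), and CACGTG in 3 of 21 lower genes (14.3%) and 3 of 8 higher genes (37.5%). The table includes genes that these cells do not express, base composition was not matched, and a match is not a bound site.

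Neighbouring genes of the pathway, listed by function, went both ways. Of 84 listed, 64 were tested, of which 25 were lower, 18 higher and 21 did not pass, with a median log2 fold change of 0.023. Over all tested genes 25.8% were lower and 24.1% higher. The counts per list below are to be read beside these shares, and each list holds few tested genes. In transport, 5 of 8 tested were lower and 1 higher. Bsg, which encodes basigin, the chaperone of MCT1 and MCT4, had 561, 531 and 567 CPM in Ythdf2-KO, against 778, 797 and 774 CPM in WT, 1.42-fold lower (edgeR adjusted p = 3.04e-23). Slc2a13, which encodes a proton-coupled inositol transporter, was 5.30-fold lower, with 0.251 ± 0.00712 CPM in Ythdf2-KO and 1.34 ± 0.0420 CPM in WT (SD, n = 3). Among genes of pyruvate import into mitochondria and its conversion there, 6 of 11 were lower and none higher. The import carrier genes Mpc1 and Mpc2 did not pass (log2 fold changes 0.14 and 0.068, edgeR adjusted p = 0.106 and 0.184). Pcx, which encodes pyruvate carboxylase, was 1.58-fold lower, with 74.0 ± 0.784 CPM in Ythdf2-KO and 117 ± 4.65 CPM in WT, and Pdhx, a component of the pyruvate dehydrogenase complex, 1.35-fold lower. Pdk4, the remaining kinase gene of the family, was not tested, since it had 0 counts in the Ythdf2-KO libraries and 2 in the WT libraries.

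In the glycogen and hexosamine branches 4 of 12 tested genes were lower and 5 higher. Gys1, which encodes glycogen synthase, was 1.63-fold lower, with 173 ± 0.359 CPM in Ythdf2-KO and 283 ± 4.72 CPM in WT (SD, n = 3; edgeR adjusted p = 2.72e-29), and Pgm1, which encodes a phosphoglucomutase, had a log2 fold change of -0.59. Ugp2, which encodes UDP-glucose pyrophosphorylase, was 1.25-fold higher. In the ribose and NADPH branch 2 of 6 were lower and 2 higher. H6pd, which encodes the dehydrogenase of the endoplasmic reticulum, and Prps1 were 1.22- and 1.06-fold lower, and Prps2 and Rbks were 1.25- and 1.40-fold higher. PRPS enzymes turn ribose 5-phosphate into the precursor of nucleotides.

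Among other isoenzymes and regulatory enzymes, 2 of 9 tested were lower and 3 higher. Bpgm, which encodes bisphosphoglycerate mutase, and Eno3, the muscle enolase gene, were 1.35- and 1.27-fold higher, and Pfkfb1 and Adpgk were lower, with log2 fold changes of -0.27 and -0.11. Of 6 tested genes of glycerol and gluconeogenic side steps, 2 were lower and 3 higher, led by Pck2 (1.37-fold lower), which encodes mitochondrial phosphoenolpyruvate carboxykinase, Galm (1.11-fold lower), Gpd1 (3.54-fold higher, at 2.33 ± 0.379 CPM in Ythdf2-KO and 0.653 ± 0.117 CPM in WT) and Gpd1l (1.29-fold higher).

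Of 12 tested regulators, 4 were lower and 4 higher. Txnip, which encodes a glucose-responsive protein known to restrain glucose uptake, had 22.8, 23.4 and 23.0 CPM in Ythdf2-KO, against 73.4, 72.6 and 73.3 CPM in WT. It was 3.17-fold lower, with a log2 fold change of -1.66 ± 0.038 (SE, n = 3 per group; edgeR adjusted p = 4.58e-35). Mlxip, which encodes the glucose-sensing factor MondoA that activates Txnip, was 1.21-fold lower, with 83.3 ± 1.49 CPM in Ythdf2-KO and 101 ± 3.40 CPM in WT (SD, n = 3). Ppargc1a, which encodes a coactivator of mitochondrial genes, was 4.46-fold higher at a low level, with 2.70 ± 0.285 CPM in Ythdf2-KO and 0.605 ± 0.0690 CPM in WT. Foxk1, which encodes a factor known to promote glycolysis, was 1.09-fold higher. Hif1a, which encodes the oxygen-regulated subunit of HIF-1, had 148 ± 3.14 CPM in Ythdf2-KO and 151 ± 2.72 CPM in WT, and did not pass (edgeR adjusted p = 0.305), and Myc had 77.7 ± 3.48 CPM in Ythdf2-KO and 76.4 ± 3.25 CPM in WT and did not pass (edgeR adjusted p = 0.563). Epas1, which encodes the alpha subunit of HIF-2, was higher at a very low level, with 50, 27 and 62 counts in Ythdf2-KO and 1, 12 and 5 counts in WT (edgeR adjusted p = 1.70e-06). Hif1a, Epas1, Myc, Pdk4, Mpc1 and Mpc2 were named after their values were seen.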

How the data were processed

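Per the submitters' processing notes, reads were trimmed with fastp 0.23.2, aligned with HISAT2 2.2.1 to GRCm39 and assigned to genes with featureCounts 2.0.6. What the authors deposited are whole-number counts per gene symbol, with no normalization. The handling of strand and multi-mapping reads is not given in the sources used here.

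The analysis used edgeR 4.0.16 (R 4.3.3). After filterByExpr and TMM scaling, genotypes were compared by the quasi-likelihood test with robust dispersions, p-values being adjusted by Benjamini and Hochberg's method across the 17718 genes that passed. The standard error of a log2 fold change is its size divided by the square root of the F statistic. Levels are TMM-scaled CPM. Levels per kb use the longest protein-coding GENCODE M21 transcript of a symbol (GRCm38); all 34 genes matched. Paralog ratios used counts plus 0.5. Members, lists and tests were chosen with earlier results of these data known. Genes were named if among the 34, if the targeted gene, or if among the 2 called genes with the smallest adjusted p in each direction of each list of neighbouring genes with a mean of at least 1 CPM in the higher genotype; some items are not reported here. The pipeline was tested on simulated data. Within a genotype, the chi-square per degree of freedom between libraries was 4.24 to 14.7, so that no library repeats another. Alternatives were RLE and upper-quartile scaling, TMM without the 34 and the mitochondrial genes, other filters, DESeq2 1.42.0, limma-voom (limma 3.58.1), the replicate block, length and GC offsets, an adjusted p under 0.01 and left-out libraries. Promoter sequences are from RefSeq (GRCm38.p6). The start site printed was the one nearest the start of the gene's longest protein-coding GENCODE M21 transcript.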

Additional observations from a re-analysis of the deposited data

How the results depend on the processing

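Of the 34 genes, 28 kept their direction and their side of the threshold under every alternative run, among them 27 of the 30 called; Slc2a3, Aldoc and Pdk2 were not tested with the filter at a mean of 5 CPM. The exceptions were Pfkm, Eno2, G6pdx, Pgls, Tkt and Rpe. Eno2 passed as higher with upper-quartile scaling, no filter, a filter at a mean of 5 CPM, without Ythdf2-KO replicate 3, without WT replicate 1, without WT replicate 3 and with replicate 3 of each genotype left out together (edgeR adjusted p from 0.0236 to 0.0478 over these). Rpe reversed to a log2 fold change of 0.0055 with upper-quartile scaling (edgeR adjusted p = 0.917). The median log2 fold change of the 34 genes moved from -0.26 by more than 1 SD of its libraries (0.0152) to -0.21 with upper-quartile scaling, to -0.24 with no filter and with length and GC offsets and to -0.28 without replicate 3 of both genotypes. Leaving out 1 library gave -0.28 to -0.24, with 20 to 21 genes lower and 9 to 10 higher. Of these, leaving out WT replicate 1 (-0.28) or WT replicate 2 (-0.24) also moved the median by more than 1 SD. Upper-quartile scaling moved the median of all genes from -0.0053 to 0.049 and the share of higher calls from 48.3% to 59.2%. It gave 19 lower and 11 higher among the 34 genes, and the gap between their median and that of all genes was -0.26 in both. The replicate block left 21 lower and 9 higher. Same-numbered libraries deviated together with correlations of 0.050, -0.094 and -0.13 over genes of at least 5 CPM, and not every library correlated best with its own number, so the numbers do not pair them. The 12 paralog ratios moved by less than 1 SD when a library was left out or 2 replaced 0.5. With the median length of a gene's transcripts, 48 of 68 levels per kb moved by more than 1 SD. The order within isoenzyme families kept, except that Pfkfb2 stood above Pfkfb4 in WT. The percentages of a family's level per kb hold only for the longest transcript. In Ythdf2-KO, Hk1 and Hk2 had 56.9 and 31.0 CPM per kb with the longest transcript, and 419 and 61.2 with the median length.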

Other observations

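The scatter of Gapdh between libraries stood apart from the other abundant genes of the pathway. It had 253, 231 and 212 CPM for Ythdf2-KO replicates 1 to 3 and 232, 284 and 299 CPM for WT replicates 1 to 3. The standard error of its log2 fold change was 0.13, against 0.020 to 0.027 for the other 20 genes of at least 100 CPM.

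Of 7 copies of glycolytic genes with symbols of their own, chosen after their values were seen, 5 were lower, against 25.8% of all tested genes. Gapdh-ps15 and Gapdh-ps16 did not pass. Both were low, with means of 0.520 and 1.07 CPM in Ythdf2-KO and 0.875 and 1.32 CPM in WT. Pgk1-rs7 had 4.32 ± 0.0593 CPM in Ythdf2-KO and 6.42 ± 0.620 CPM in WT (SD, n = 3), and Pgam1-ps2 had 2.56 ± 0.271 CPM in Ythdf2-KO and 3.87 ± 0.543 CPM in WT. Their log2 fold changes were -0.57 and -0.60, beside -0.62 for Pgk1 and -0.54 for Pgam1. Whether these counts are reads of the parent genes was not tested.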
